A study of Mus musculus with 2 samples.

Results

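The 10 genes followed here encode the route by which a cell shows fragments of its own proteins to CD8+ T cells: the class I heavy chains H2-K1 and H2-D1, their light chain B2m, the peptide transporter and loading genes Tap1, Tap2 and Tapbp, the immunoproteasome subunits Psmb8, Psmb9 and Psmb10, and the transactivator Nlrc5. They were taken by symbol from a fixed list, with no threshold on their values, and they are 10 of the 23183 gene symbols listed. RNA sequencing of mouse cavernous endothelial cells (MCECs) gave 1 library for each of 2 conditions. In HG+HBS the cells were kept in high glucose (HG, 30 mM) and received the vehicle HEPES-buffered saline. In HG+PC-NVs the cells in the same glucose received 1 µg/mL of PC-NVs, nanovesicles made by extruding cultured mouse cavernous pericytes. Both libraries therefore share the high glucose, and cultures in normal glucose were not analysed here. By the methods, RNA was taken 72 hours into glucose and 24 hours after PC-NVs, whereas the labels give 5 days of glucose. The paper's figure legend for these data gives PC-NVs and high glucose the same duration, so the length of PC-NV exposure is not settled either. MCECs are primary cells grown from the penis of male C57BL/6J mice aged 8 weeks, with no genetic change described, grown in M199 with 20% fetal bovine serum. By the methods, serum was withdrawn for 24 hours before the glucose exposure in both conditions. HBS and PC-NVs stand below for these conditions. The comparison asks how the RNA levels of MCECs in high glucose differed once PC-NVs were added. RNA carried in by the vesicles and RNA made by the cells cannot be told apart in such a library.

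Most nucleated cells carry class I molecules. Proteasomes cut cytosolic proteins into peptides, the transporter formed by Tap1 and Tap2 moves the peptides into the endoplasmic reticulum, and tapasin (Tapbp) holds an empty heavy chain with B2m beside the transporter until a peptide fits. Interferons and NF-kB raise the expression of these genes in many cell types, endothelial cells included, and in such cells the subunits Psmb8, Psmb9 and Psmb10 take the place of the constitutive subunits Psmb5, Psmb6 and Psmb7. Nlrc5 acts at class I promoters together with the RFX, CREB/ATF and NF-Y factors, as CIITA does at class II promoters.

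The files hold log2(FPKM + 1) values, where FPKM is the number of fragments scaled to transcript length and library depth. The steps between low values put the depth at about 13300000 fragments with HBS and 11600000 with PC-NVs. With 1 library per condition no difference could be set against variation between cultures, and the intervals given below cover counting error only. The cell label was checked against marker genes. Of 17 endothelial markers, 11 were below 1 FPKM in both libraries, among them the von Willebrand factor gene Vwf (0.158 and 0.128 FPKM in HG+HBS and HG+PC-NVs) and the angiopoietin receptor relative Tie1 (0.185 and 0.194 FPKM). Pecam1, another defining endothelial marker, stood at 1.05 and 0.938 FPKM and the endothelial cadherin gene Cdh5 at 5.05 and 5.73 FPKM. The summed level of the 17 was 66.2 FPKM with HBS and 51.3 FPKM with PC-NVs, whereas 9 fibroblast markers summed to 3412 and 3332 FPKM. Most of the endothelial sum came from Eng (29.0 and 21.4 FPKM) and Esam (17.4 and 11.7 FPKM), both lower by more than 25% with PC-NVs, and from Egfl7 (9.48 and 8.57 FPKM). Among the fibroblast markers 5 of 9 were lower and 1, Dcn, was higher (623 and 1283 FPKM). The 13 pericyte and mural markers summed to 148 and 109.7 FPKM and moved both ways, with 3 higher, such as Rgs5 (1.69 and 7.23 FPKM), and 4 lower, such as Acta2 (27.6 and 8.02 FPKM). The part of these shifts in the class I levels was not tested. Most defining endothelial markers were thus near 0, and MCECs is used below as the name the labels give. In these bulk samples fewer cells of a type and less RNA per cell cannot be told apart.

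Of the 10 genes, 7 were higher in HG+PC-NVs by more than 25% on the log2(FPKM + 1) scale, 0 were lower by as much, and 3 stayed within that limit. Among all 11785 genes with a mean log2 value of 1 or more, all 10 included, 12.4% were higher and 12.0% lower by more than 25%. These shares also stand beside the counts of marker and gene lists in other paragraphs. Throughout, lower by more than 25% means that the HG+HBS value of FPKM + 1 was more than 25% above that with PC-NVs. The median log2 difference (HG+PC-NVs minus HG+HBS) of the 10 genes was 0.62, against -0.01 for all genes, and the 90th percentile of all genes was 0.38. At more than 1.5-fold 6 of the 10 were higher and 0 lower, beside 5.33% and 3.57% of all genes. At more than 2-fold 1 was higher, H2-K1, and 0 lower, beside 2.38% and 0.798% of all genes. Of the 9 with a mean log2 value of 3 or more, 6 were higher and 0 lower by more than 25%, beside 12.0% and 8.73% of all genes of that level. The differences ran from 1.48 for H2-K1 to -0.14 for Tap1. The 10 genes together summed to 2554 FPKM with HBS and 4592 FPKM with PC-NVs, a 1.80-fold difference, and took 0.489% and 0.791% of the summed FPKM. Most of both sums was B2m, with 1847 and 3300.2 FPKM, so the fold of the sum mainly reflects that gene. The plot of levels shows the 10 genes over a range from 2.512 FPKM (Nlrc5 with HBS) to 3300.2 FPKM (B2m with PC-NVs).

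**Figure D1:**
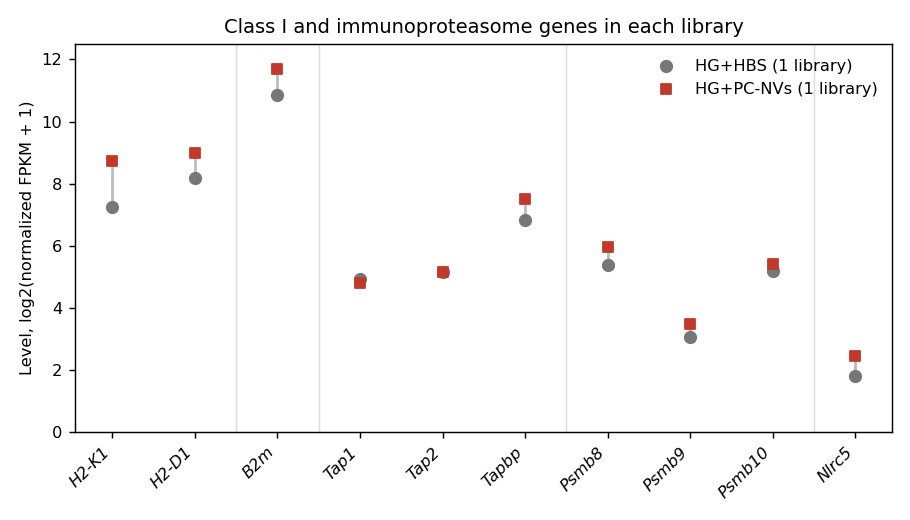
Level of each of the 10 genes in HG+HBS and HG+PC-NVs on a log scale, 1 library each. The gap is widest for H2-K1 (151 and 426 FPKM), and the points of Tap2 (34.2 and 34.3 FPKM) lie on each other.

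**Figure D2:**
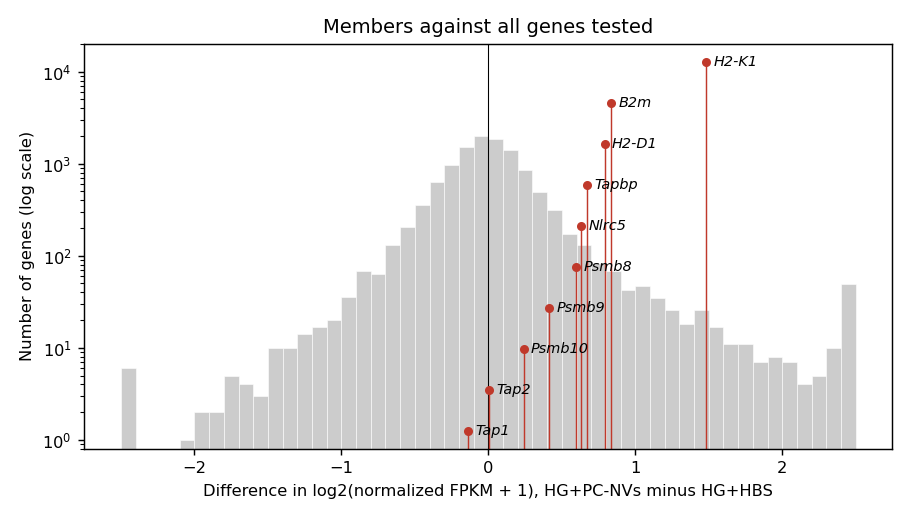
Distribution of the log2(FPKM + 1) difference, HG+PC-NVs minus HG+HBS, over 11785 genes, with the number of genes on a log axis, the 10 genes marked at arbitrary heights and the end bars pooling larger differences. H2-K1 at 1.48 lies in the right tail, where 1.10% of genes had a larger difference, and Tap1 at -0.14 lies inside the central bulk.

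Of the 10 genes H2-K1 showed the widest gap. It had a level of 151 FPKM with HBS and 426 FPKM with PC-NVs, a ratio of 2.81 with a 95% exact interval from 2.70 to 2.93. H2-D1, the other classical heavy chain of this strain, had 292 and 507 FPKM, a ratio of 1.73 (95% exact interval 1.68 to 1.78). The ratio of H2-K1 to H2-D1 went from 0.518 to 0.840, so the heavy chains drew closer to each other in level, with H2-D1 the higher in both libraries. H2-K1 spans chr17:33996017-34000347 on the minus strand and H2-D1 spans chr17:35262730-35267499 on the plus strand (GENCODE M21, GRCm38), at opposite sides of the class II and class III regions of the H2 complex.

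Heavy-chain genes resemble each other, and reads can be split among them. Of the 100-base windows in H2-K1 transcripts, 0 of 1520 occur unchanged in a transcript of another gene, and for H2-D1 the count is 93 of 2003 (4.64%), most of them shared with H2-Q1. H2-D1 is for that reason the less certain value of the pair. H2-L, with 9.20 FPKM with HBS and 8.40 FPKM with PC-NVs, is not in GENCODE M21, so windows shared with it could not be counted. The 18 heavy-chain loci listed were therefore also summed. FPKM is scaled to transcript length, so reads moved between loci of unlike length would still alter that sum. H2-D1 also shares windows with Gm7030, Gm11127 and Gm8909, which are outside it. The sum was 574 FPKM with HBS and 1168 FPKM with PC-NVs, a 2.04-fold difference. H2-K1 and H2-D1 made up 77.4% and 79.8% of that sum. It was chosen after the values had been seen.

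B2m, the invariant light chain, was the most abundant of the 10 genes, with 1847 FPKM with HBS and 3300.2 FPKM with PC-NVs. The ratio was 1.79 (95% exact interval 1.76 to 1.82), and the gene went from place 28 to place 12 in the order of levels of all genes. It lies at chr2:122147686-122153083 on the plus strand, away from the H2 complex, and 0 of its 761 windows are shared with another gene. B2m stood at 4.16 times the sum of H2-K1 and H2-D1 with HBS and 3.54 times with PC-NVs. The light chain thus exceeded both heavy chains in each library, by a smaller factor with PC-NVs.

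The promoters of these 3 genes are shown because they carry the textbook elements that NF-kB, IRF, CREB/ATF and NF-Y factors bind. The sequences are from RefSeq (GRCm38.p6), read 5′ to 3′ on the strand of the gene, with capitals for each match to the letters searched on either strand: the NF-kB consensus, the IRF core GAANNGAAA, the ISRE core GAAANNGAAA, the CRE core TGACG and the CCAAT box (ATTGG on the other strand). These motifs were chosen with the promoter sequences already seen. The bases before the start of H2-K1 (chr17:34000348-34000547, minus strand) and of B2m (chr2:122147487-122147685, plus strand) are
H2-K1 promoter: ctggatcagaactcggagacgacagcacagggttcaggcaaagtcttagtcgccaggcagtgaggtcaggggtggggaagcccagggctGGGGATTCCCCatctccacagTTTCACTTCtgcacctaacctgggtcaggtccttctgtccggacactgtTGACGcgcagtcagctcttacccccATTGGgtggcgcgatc
B2m promoter: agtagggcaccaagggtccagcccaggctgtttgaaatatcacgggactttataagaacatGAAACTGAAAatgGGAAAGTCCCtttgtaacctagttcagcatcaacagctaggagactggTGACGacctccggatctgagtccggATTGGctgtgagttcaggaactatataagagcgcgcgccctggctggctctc
In H2-K1 the NF-kB match lies 111 to 101 bases before the start and the IRF core 90 to 82 bases before it. In B2m the order is turned round, with the ISRE core 139 to 130 bases and the NF-kB match 126 to 117 bases before the start. H2-D1 holds nearly the same stretch as H2-K1, here set beside it for H2-K1 (chr17:34000429-34000458, minus strand), H2-D1 (chr17:35262923-35262952, plus strand, inside an exon of GENCODE M21 that begins upstream of the RefSeq start) and B2m (chr2:122147548-122147570, plus strand):
H2-K1 stretch: GGGGATTCCCCatctccacagTTTCACTTC
H2-D1 stretch: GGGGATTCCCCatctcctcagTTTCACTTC
B2m stretch: GAAACTGAAAatgGGAAAGTCCC
An NF-kB match together with an IRF or ISRE core occurs in 0.511% of the 32851 promoters of the table, each searched over the 250 bases before the start, and H2-K1, H2-D1 and B2m are among them. Single matches are more frequent. The NF-kB consensus occurs in 7.25% of promoters, the IRF core in 6.31%, the ISRE core in 2.98%, the CRE core in 17.8% and the CCAAT box in 33.8%. The promoters of Tap1, Tapbp, Psmb8, Psmb9 and Psmb10 held none of the NF-kB, IRF or ISRE letters in this window, although the CRE core was found in Tap1 and Psmb9 and the CCAAT box in Tap1, Tapbp and Psmb9. For Tapbp, Psmb8 and Psmb9 the RefSeq starts (chr17:33919478, 34198195 and 34187330) put the whole window inside the gene's GENCODE M21 span. The bases before those spans were not searched, so their lack of matches is limited to these windows. Tap2 and Nlrc5 were not matched in the promoter table. A match is a description of the letters, and binding was not measured.

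The genes of peptide transport and loading did not move as a block. Tapbp, which encodes tapasin, the bridge between the transporter and the empty class I molecule, had 113 FPKM with HBS and 179.8 FPKM with PC-NVs, a ratio of 1.595 (95% exact interval 1.53 to 1.66). It is listed in 2 rows, and both were higher, with log2 differences of 0.48 and 0.78. Of its 2799 windows 14.04% are shared with another annotated gene, nearly all with the overlapping Gm19412. Tap2, the second half-transporter, had 34.2 and 34.3 FPKM, a ratio of 1.00 (95% exact interval 0.933 to 1.08). Tap1 had 29.6 and 26.8 FPKM, a ratio of 0.907 (95% exact interval 0.831 to 0.990). The transporter genes therefore stood within 25% of HG+HBS while tapasin and the class I chains were higher. The ratio of Tap1 to Tap2 was 0.865 with HBS and 0.782 with PC-NVs. Tap1 also has 2 rows. The main row went from 28.5 to 25.3 FPKM and the minor one from 1.08 to 1.498 FPKM.

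Tap1 and Tap2 share a stretch of chromosome 17 with Psmb8 and Psmb9, so that neighbours in the genome differed in their change. In order along the chromosome stand Psmb9 (chr17:34181987-34187764, minus strand), Tap1 (chr17:34187553-34197225, plus strand), Psmb8 (chr17:34197721-34201454, plus strand) and Tap2 (chr17:34203527-34216321, plus strand). Their log2 differences in that order were 0.41, -0.14, 0.60 and 0.00. The RefSeq starts of Tap1 and Psmb9 lie 226 bases apart on opposite strands, and their 300-base promoter windows share 275 bases. The pair with nearly 1 promoter region in common thus had differences of opposite sign, although only that of Psmb9 passed 25%. The first exons overlap, and 113 windows (3.96% of Tap1 and 9.02% of Psmb9) are common to both genes. The kit keeps the strand, but whether the counting used it is not stated, so reads of the overlap may have gone to either gene. Tapbp, at chr17:33915899-33929292 on the plus strand, lies outside this stretch, on the far side of H2-K1.

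The immunoproteasome subunits were graded. Psmb8 (β5i), which carries the chymotrypsin-like activity, had 40.4 FPKM with HBS and 61.6 FPKM with PC-NVs, a ratio of 1.53 (95% exact interval 1.40 to 1.67). Psmb9 (β1i) was the least abundant of the 3, with 7.28 and 10.02 FPKM from about 131 and 157 fragments. Its ratio was 1.38, and the interval from 1.08 to 1.75 is wide. Psmb10 (β2i), which lies at chr8:105935735-105938444 on the minus strand, had 35.4 and 42.0 FPKM, a ratio of 1.19 (95% exact interval 1.06 to 1.33), and stayed within 25%. All 3 ratios lay above 1 with their counting intervals, and those of Psmb8 and Psmb10 did not overlap each other.

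Each immunoproteasome subunit was set against the constitutive subunit whose place it takes, on the FPKM scale, which is per length. Psmb8 stood at 23.96% of Psmb5 with HBS and 32.9% with PC-NVs, a 1.38-fold difference of the ratio. Its 95% interval ran from 1.23 to 1.53, by a normal approximation on the log scale, as for the other pairs. Psmb9 stood at 4.72% and 6.17% of Psmb6, 1.31-fold (1.03 to 1.67). Psmb10 stood at 27.7% of Psmb7 in both libraries, 1.00-fold (0.881 to 1.13). By counting error alone, the ratio to the constitutive partner was higher with PC-NVs for Psmb8 and Psmb9, and no difference was seen for Psmb10. With 1 library per condition, variation of these ratios between cultures could not be assessed. The partners themselves stayed within 25%, at 168 and 187 FPKM for Psmb5, 154 and 162 FPKM for Psmb6 and 128 and 152 FPKM for Psmb7, and the constitutive form was the more abundant in all 3 pairs of both libraries.

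**Figure D3:**
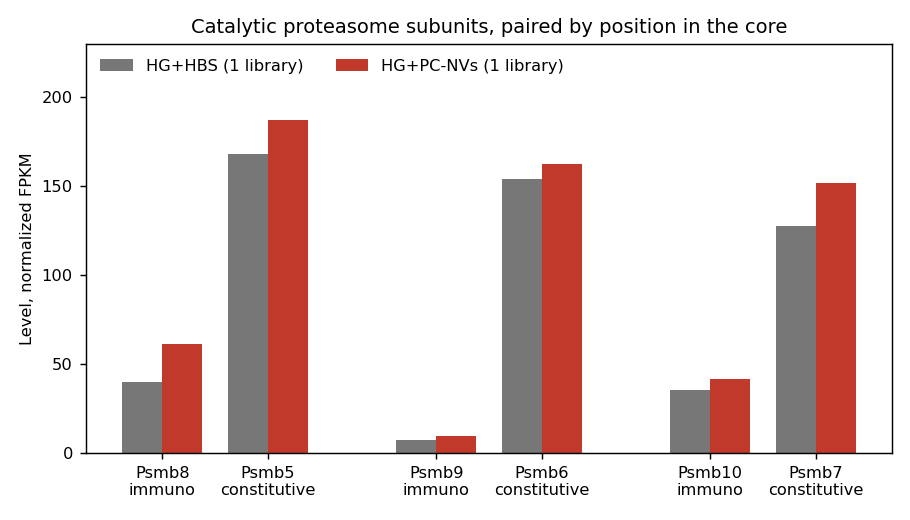
Immunoproteasome subunits set against their constitutive partners in HG+HBS and HG+PC-NVs (bars from 0, 1 library each). As a percentage of the partner, Psmb8 went from 23.96% to 32.9% of Psmb5 and Psmb9 from 4.72% to 6.17% of Psmb6. Psmb10 stood at 27.7% of Psmb7 in both.

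Among the rest of the proteasome the differences were smaller. Of 16 other core and assembly genes 0 were higher and 0 lower by more than 25%, beside 12.4% and 12.0% of all genes. Their median log2 difference of 0.07 turned to -0.01 under quantile normalization. Of 20 genes listed for the 19S regulatory cap 1 was higher and 0 lower, with a median of 0.10. The higher one was Psmd10 (15.4 and 26.4 FPKM), which encodes gankyrin, an assembly factor and not a subunit of the finished cap. Of 5 activators 1 was higher and 0 lower, with a median of 0.19. That one was Psme2 (PA28β), which had 132 FPKM with HBS and 183 FPKM with PC-NVs, and its partner in the interferon-inducible PA28 ring, Psme1 (PA28α), had 97.8 and 121 FPKM, a log2 difference of 0.30 that stayed within 25%.

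Nlrc5 was the least abundant of the 10 genes, with 2.512 FPKM with HBS and 4.44 FPKM with PC-NVs. The ratio was 1.77 (95% exact interval 1.497 to 2.098), from about 232 and 358 fragments, and the log2(FPKM + 1) difference of 0.63 understates it at this level. The gene spans chr8:94434356-94527272 on the plus strand, and 0 of its 6846 windows are shared with another gene. The factors that act with it or beside it at class I promoters differed among themselves. Of 21 such genes, 5 were higher by more than 25% and 0 lower, beside 12.4% and 12.0% of all genes. Their median log2 difference was 0.09. The higher ones included 3 NF-kB family genes, Relb (11.2 and 24.001 FPKM), Nfkb1 (20.3 and 35.0 FPKM) and Nfkb2 (31.1 and 50.4 FPKM), and the interferon regulatory factor Irf7 (140.3 and 241 FPKM). Irf1, a class I activator induced by interferon-gamma, had 15.5 and 19.6 FPKM, a log2 difference of 0.32 just within the 25% limit. The genes of the RFX, CREB/ATF and NF-Y factors were all within it.

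The other class I and class I-like genes followed the heavy chains in part. Of 20 listed, 12 had a mean log2 value of 1 or more, with a median log2 difference of 0.46. Of these 12, 6 were higher by more than 25% and 0 lower, beside 12.4% and 12.0% of all genes. H2-Q4 had 21.9 FPKM with HBS and 57.9 FPKM with PC-NVs, a log2 difference of 1.36. H2-Q7, the Qa-2 antigen gene, had 5.18 and 11.9 FPKM, and H2-T22, a non-classical gene, had 30.2 and 55.8 FPKM. H2-T23 encodes Qa-1, which presents leader peptides of other class I chains to NKG2 receptors, and had 54.6 and 93.5 FPKM, a log2 difference of 0.76. The class I-like genes Cd1d1, which presents lipids, and Hfe, which regulates iron uptake, were also higher, with 8.82 and 14.4 FPKM and with 4.02 and 6.80 FPKM. Fcgrt, the neonatal Fc receptor that pairs with B2m but binds no peptide, had 92.7 and 81.5 FPKM and stayed within 25%. The H2-Q and H2-T genes share many near-identical stretches, and single values among them are uncertain.

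Of 11 other genes of loading, trimming and folding in the endoplasmic reticulum or cytosol, 4 were higher by more than 25% and 1 lower. The shares of all genes were 12.4% and 12.0%, and the median log2 difference of the 11 was 0.28. Pdia3 (ERp57), which stands with tapasin in the loading complex, had 225 FPKM with HBS and 345 FPKM with PC-NVs. Erap1, which trims peptides in the endoplasmic reticulum, had 10.2 and 15.6 FPKM. Hspa5 (BiP) and Sec61b, both general genes of that compartment, had 254 and 347 FPKM and 136 and 186 FPKM. The lower one was Thop1, a cytosolic peptidase that destroys class I peptides, with 23.2 and 18.3 FPKM. Under quantile normalization Hspa5 was within 25%, and the count of higher genes was 3. The plot of differences by gene list shows where each list stands.

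**Figure D4:**
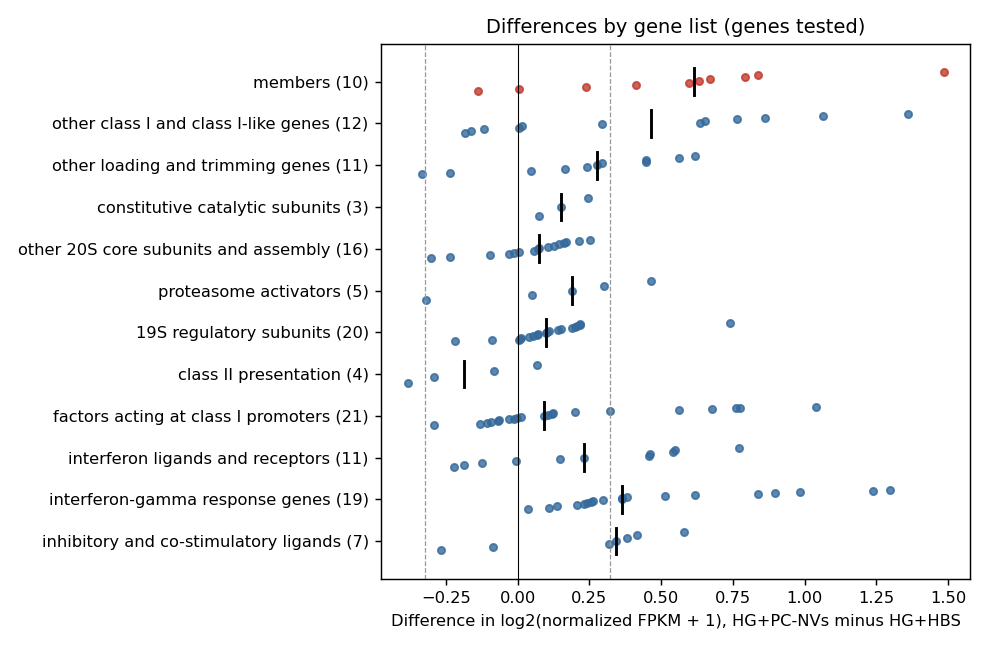
Log2(FPKM + 1) difference, HG+PC-NVs minus HG+HBS, of every measured gene of each list, with numbers of genes in brackets, black bars for medians and dashed lines at 25%. H2-K1 has the largest difference (1.48), and the constitutive catalytic, other core and 19S lists lie between the dashed lines apart from Psmd10.

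Class II presentation genes were mostly near 0. Of 12 such genes, 8 were below 1 FPKM in both libraries and 4 had a mean log2 value of 1 or more. Of these 4, 0 were higher and 1 was lower by more than 25%, beside 12.4% and 12.0% of all genes. Their median log2 difference was -0.19. The lower one was H2-DMa, which edits class II peptides (5.77 FPKM with HBS and 4.20 FPKM with PC-NVs). The invariant chain Cd74 had 0.0669 and 0.233 FPKM and the class II transactivator Ciita, a relative of Nlrc5, had 0.110 and 0.144 FPKM, all near 0. Markers of leukocytes and antigen-presenting cells were read beside the class I genes. The summed level of the 21 markers was 322 FPKM with HBS and 531 FPKM with PC-NVs. Lyz2 held the largest part of the HBS sum (212 FPKM, and 193 FPKM with PC-NVs). The gap between the sums was about that of Cd14 alone. Of the 9 markers with a mean log2 value of 1 or more, 2 were higher and 4 lower by more than 25%. Of the 21, 7 were listed at 0 in both libraries, among them the T cell genes Cd3e, Cd3g and Cd8a and the natural killer cell gene Ncr1. The pan-leukocyte gene Ptprc had 1.44 and 1.67 FPKM, a log2 difference of 0.13 within 25%. Over the ways of processing tried, that difference ran from 0.11 to 0.56, so its upper end passed the limit. Cd14 (36.6 and 252 FPKM) and Adgre1 (7.44 and 42.5 FPKM), genes of monocytes and macrophages, were higher in HG+PC-NVs, while Itgax, Csf1r, Cd68 and Fcgr3 were lower. The part of such cells in the class I levels was not tested.

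Interferon genes themselves were hardly measurable. Ifng was listed at 0 in both libraries, and Ifnb1 had 0.280 FPKM in HG+PC-NVs from about 2 fragments, under the floor of 3 fragments. Of 22 genes known to respond to interferon-gamma, 19 had a mean log2 value of 1 or more, with a median log2 difference of 0.36. Of these 19, 10 were higher by more than 25% and 0 lower, beside 12.4% and 12.0% of all genes. Cxcl10, a chemokine for T cells, had 16.02 FPKM with HBS and 40.8 FPKM with PC-NVs. Its relative Cxcl9 had 0.756 and 2.47 FPKM, and the guanylate-binding protein gene Gbp6 had 8.32 and 21.005 FPKM. Since earlier results of these libraries already showed interferon-related genes higher, this list is no independent evidence. Of all the companion genes, Gbp9 (13.0 and 20.4 FPKM), Pdia3 and Hfe had the differences nearest to the median of the 10 genes.

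The values of the 10 genes were recomputed under other normalizations, another pseudocount and another choice of rows. All 10 kept their side of 25% in each of these settings. The differences of the most abundant genes shrank most under quantile normalization, from 0.84 to 0.52 for B2m and from 1.48 to 1.33 for H2-K1. For Tap2, which lies at 0.00, the sign was not stable, with a range from -0.06 to 0.01.

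**Figure D5:**
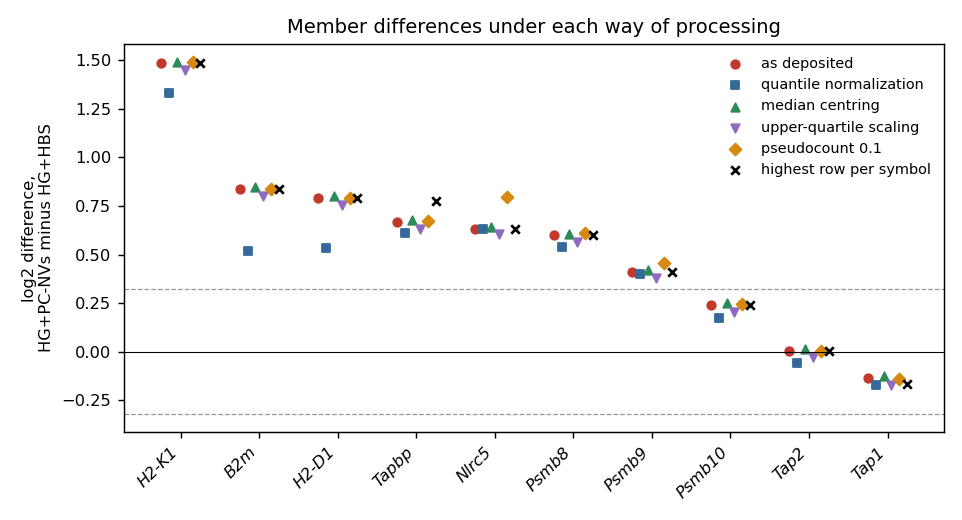
Log2 difference, HG+PC-NVs minus HG+HBS, of each of the 10 genes in 6 ways of processing, with dashed lines at 25%. H2-K1 has the largest difference in all 6, and Psmb10, Tap2 and Tap1 lie between the dashed lines in all 6.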

How the data were processed

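RNA of MCECs was analysed as 1 library per condition. The authors prepared stranded poly(A) libraries, trimmed reads with FASTX_Trimmer and BBMap, mapped them with TopHat, counted with BEDTools, derived FPKM through Cufflinks, normalized in R with edgeR, and deposited log2(normalized FPKM + 1) for 33299 rows. The submitters' processing notes give the build mm10, and versions and annotation are not given in the sources used here. The methods name quantile normalization, but the deposited libraries do not share their quantiles (summed FPKM 521666 with HBS and 580717 with PC-NVs, and 17764 and 16152 symbols above 0). The values were used as deposited, and quantile normalization between the libraries was an alternative, under which the difference of B2m went from 0.84 to 0.52 and that of H2-D1 from 0.79 to 0.53.

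Per symbol, 2^value − 1 was summed over rows in each library, and differences were taken on log2(FPKM + 1), a pseudocount of 1. Genes with a mean log2 value of 1 or more were counted, and a fold above 1.25 was the limit. The same fold was used in both directions, so a gene counted as lower had an HG+HBS value above its HG+PC-NVs value by more than that fold. The members, the lists and this limit were chosen with earlier results of these data known. Named in the text are all 10 members, up to 3 genes per direction with the largest differences past the limit in each list, genes set by name (such as Psmb5, Psme2, Irf1, Ciita and Ptprc), the 3 genes nearest the members' median, and others chosen after their values were seen. The latter are Nfkb2, Cd1d1, Fcgrt, Sec61b, Ifnb1, Ifngr1, Ifngr2, Cd80, Cd86, Cd40 and most marker genes. The values of 1 gene under this rule are not reported here.

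Fragments were estimated from FPKM steps over 2189 single-transcript genes longer than 1500 nt (0.0751 and 0.0862 FPKM times kb per fragment), giving 95% exact Clopper-Pearson intervals and a floor of 3 fragments. Intervals of the subunit ratios instead used a normal approximation on the log scale. Both kinds of interval leave out variation between cultures and the steps of the authors' normalization. Coordinates and shared windows of 100 bases came from GENCODE M21 (GRCm38), which held 22148 of the 23183 symbols. Promoters came from RefSeq, which matched 8 of the 10 members. The scripts were tested on simulated data. Alternatives covered normalization, pseudocount, rows, filter and fold. The software was numpy 2.4.6, scipy 1.17.1, pandas 2.3.3 and matplotlib 3.10.9 under Python 3.11.15. All other assays of the study were not analysed here.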

Additional observations from a re-analysis of the deposited data

How the results depend on the processing

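No paired analysis was possible because each condition has 1 library, and for the same reason no replicate could be left out. Of the 85 values recomputed under an alternative, 77 stayed within counting error or within 1.5 times the main count. The members counted as higher all kept their sign. Tap2 changed sign within counting error, to -0.06 under quantile normalization and -0.03 under upper-quartile scaling. The fold of the Psmb10/Psmb7 ratio likewise went from 1.00 to 1.02 under quantile normalization. The number of genes higher in HG+PC-NVs was 7 under quantile normalization, median centring, upper-quartile scaling, a pseudocount of 0.1, the highest row and no filter. It was 6 at 1.5-fold and with a mean log2 value of 3 or more, which Nlrc5 does not reach, and 1 at 2-fold. The number lower was 0 in each. The median difference ran from 0.53 (quantile normalization) to 0.64 (pseudocount 0.1). Of 50 values of single genes 6 moved beyond counting error: H2-K1 (1.33), B2m (0.52), H2-D1 (0.53) and Tapbp (0.61) under quantile normalization, B2m (0.80) under upper-quartile scaling and Tapbp (0.78) with its highest row. The cause was not tested. Among the companion lists, counts moved by 1 gene at most under the 3 other normalizations, as for the factors at class I promoters (6 higher under median centring), the interferon-gamma list (9 higher under quantile normalization) and the class II genes (2 lower under upper-quartile scaling). The alternative scalings moved the median of all genes by -0.03 to 0.01. Depth limits Psmb9 most among the 10 genes, with about 131 and 157 fragments.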

Other observations

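Ligands that T cells and natural killer cells read beside class I molecules were also measured. Of 12 inhibitory, co-stimulatory and NKG2D ligand genes, 7 had a mean log2 value of 1 or more, with a median log2 difference of 0.34. Of these 7, 4 were higher in HG+PC-NVs by more than 25% and 0 lower, beside 12.4% and 12.0% of all genes. The count was 3 under upper-quartile scaling and 5 under quantile normalization. Raet1e, a stress-induced ligand of the activating receptor NKG2D, had 10.4 FPKM with HBS and 16.1 FPKM with PC-NVs, and Raet1d, of the same family, had 6.33 and 8.79 FPKM. Cd274 (PD-L1), which restrains T cells, had 2.95 and 4.14 FPKM from about 142 fragments in HG+HBS, so activating and restraining ligands were both among the higher genes. Cd80, a co-stimulatory ligand, had 16.7 and 15.7 FPKM and stayed within 25%, and Cd86 and Cd40 were below 1 FPKM in both libraries.

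Receptors and feedback genes of interferon signalling differed among themselves. Of 15 ligands, receptors and regulators 11 had a mean log2 value of 1 or more, with a median log2 difference of 0.23. Of these 11, 5 were higher by more than 25% and 0 lower, beside 12.4% and 12.0% of all genes. Socs3, which restrains JAK-STAT signalling, had 41.1 FPKM with HBS and 70.9 FPKM with PC-NVs. Ptpn2, a phosphatase that acts on JAK and STAT proteins, had 13.9 and 20.8 FPKM, and the type I receptor gene Ifnar2 had 40.3 and 59.0 FPKM. The receptor chains Ifngr2 (52.2 and 71.997 FPKM) and Ifngr1 (67.2 and 57.6 FPKM) differed in opposite directions, Ifngr1 within 25%.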
